A study of Mus musculus with 6 samples.

Results

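The 4w testis was compared with the 3w testis, the week in which spermatids of the opening wave of spermatogenesis begin to elongate, in 1 library each of the 6 that cover 1w to 6w. Both libraries came from untreated testis of FVB mice, removed at 3 and 4 weeks after birth, and the sources do not say how many animals gave each RNA. Total RNA was profiled by 3'READS, a method that sequences the 3' ends of poly(A)+ transcripts and so counts each transcript at its cleavage and polyadenylation site (pA). Reads at the last-exon pAs of a gene were summed, pAs assigned to more than 1 gene were dropped, and genes with at least 20 such reads over the 2 libraries were kept, which left 10919 of the 17132 genes in the table. Values are RPM, reads scaled to a library total of 1e+06, and a gene is called higher or lower when its RPM, with 1 read added to each count, differed at least 2-fold. With 1 library a week there is no replicate check and no test between the ages. The 95% intervals given below cover counting error only, and reads were amplified by PCR without molecular identifiers, so that even this error may be understated.

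In the haploid phase of spermatogenesis, round spermatids build an acrosome and a flagellum, and their chromatin is then stripped of histones, filled with transition proteins and finally packed with protamines. Many genes of this programme are transcribed from testis-specific promoters, and their mRNAs are often stored before translation, since transcription stops as the nucleus condenses. Most mouse genes also carry more than one pA in the last exon, and choice of the proximal site (Prx-pA) gives a shorter 3'UTR than choice of the distal site (Dis-pA), a process called alternative polyadenylation (APA) for which male germ cells are known.

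The 3w library held 3594868 reads and the 4w library 4026419 after pAs listed more than once were dropped, so that 1 read stood for 0.278 RPM at 3w and 0.248 RPM at 4w. Last-exon pAs took 94.95% of the reads at 3w and 93.96% at 4w. Make-up of the libraries differed more than their depth. The 10 most abundant genes held 9.06% of all reads at 3w but 20.3% at 4w, and Tnp1 and Prm1 alone went from 0.0646% to 10.5%. The median gene had a log2 ratio of -0.72 on the RPM scale and of -0.53 when the 10 most abundant genes were left out of the totals, while on the TMM scale of edgeR, which sets aside the extreme genes, the median was -0.03. Of the 10919 genes, 1099 were higher in RPM at 4w (10.1% of all) and 3875 lower (35.5% of all). The TMM scale gave 1891 higher (17.3% of all) and 978 lower (8.96% of all). A moderate fall in RPM is therefore at the level of the median gene, and both scales are given for each gene list below. Other expression counts are in RPM unless TMM is named. The 3w library, and for some genes the 2w library, held reads of genes of other tissues, described with the falls below. At 2w these included 1030 reads of Acta1, 325 of Crisp1 and 263 of Krt1. With the 2w library in place of 3w, a comparison added after the data were seen, 2315 of 11563 genes were higher at 4w and 6127 lower. At a limit of 4-fold in RPM, 656 genes were higher and 465 lower, and 322 were higher and 95 lower by at least 8-fold.

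The genes of spermatid chromatin led the rise. All 7 spermatid nuclear proteins rose, with a median log2 ratio of 7.02 in RPM, beside the 10.1% of all genes, and all 7 also rose on the TMM scale. Tnp1, the major transition protein, had 1890 reads at 3w and 274743 at 4w, a 130-fold rise in RPM (interval 124 to 136). Prm1, the protamine that replaces it, went from 431 to 149245 reads, 309-fold (281 to 341). Prm2 rose from 17 to 6691 reads and Tnp2 from 25 to 6503, which is 351-fold (219 to 604) and 232-fold (157 to 359). The linker histone variants rose less, with Hils1 going from 269 to 3308 reads, 11.0-fold (9.69 to 12.5), and H1fnt from 21 to 579, 24.6-fold (15.9 to 40.1). Prm3, a cytoplasmic protein encoded beside the protamines, went from 25 to 505 reads. Each of the 7 had more RPM still at 6w. In a bulk sample, more cells of a type and more RNA per cell cannot be told apart, for these or any other genes of the comparison. Reads of Prm1 and Tnp1 were also present before any spermatid is due, at 796 and 1174 in the 1w library and 108 and 162 at 2w, and their part in the 3w values was not tested.

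**Figure D1:**
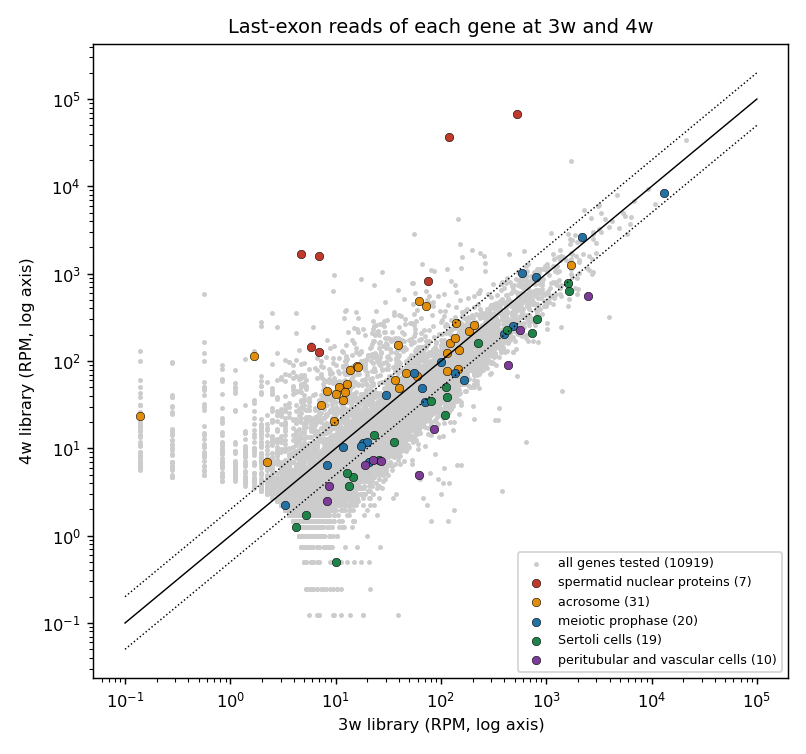
RPM of each gene tested in the 3w library (x axis) against the 4w library (y axis), both on log axes, with genes of 5 lists coloured; the solid line marks equal RPM, the dotted lines 2-fold, and genes with 0 reads are drawn below the level of 1 read. The spermatid nuclear proteins lie far above the upper dotted line, most acrosome genes above the solid line, and the peritubular and vascular genes below the lower dotted line.

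Of all genes, Cstl1, a cystatin-like gene, had the highest ratio among those read at both ages, with 2 reads at 3w and 2331 at 4w, a ratio of 1041 whose interval runs from 288 to 8598. Trim42, a tripartite motif gene, went from 9 to 1444 reads, 143-fold (75.2 to 314). Fscn3, the testis fascin that bundles actin, had 0 reads at 3w and 519 at 4w, which is at least 154-fold higher when 3 reads are taken as what a count of 0 allows. Bpifa3, a member of the BPI fold family, had 0 and 401 reads, at least 119-fold higher. The other genes with the highest lower bounds are known by clone names. Among them, 5031439G07Rik went from 35 to 3887 reads, 1700020A23Rik from 7 to 1119, 1700042G07Rik from 2 to 669 and 1700008P02Rik from 1 to 392. All of these genes had more reads again at 5w.

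A whole set of genes was almost silent at 3w. In 40 genes 0 reads at 3w were followed by at least 20 at 4w, and 149 genes went from at most 3 reads to at least 20. Of the 149, 126 also had at most 3 reads at 2w, and 145 kept at least 20 reads at both 5w and 6w. Clone names ending in Rik made up 40 of the 149, against 843 of all 10919 genes tested. Hspa1l, a testis chaperone of the HSP70 family, had 1 read at 3w and 384 at 4w, with an interval of the ratio from 61.2 to 13576. Spatc1, a spermatogenesis-associated centriolar protein, had 3 and 330 reads, and Oxct2a, a testis form of the ketone-body enzyme, had 0 and 243, at least 72.3-fold higher. The reverse was rarer, since 11 genes had at least 20 reads at 3w and 0 at 4w.

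**Figure D2:**
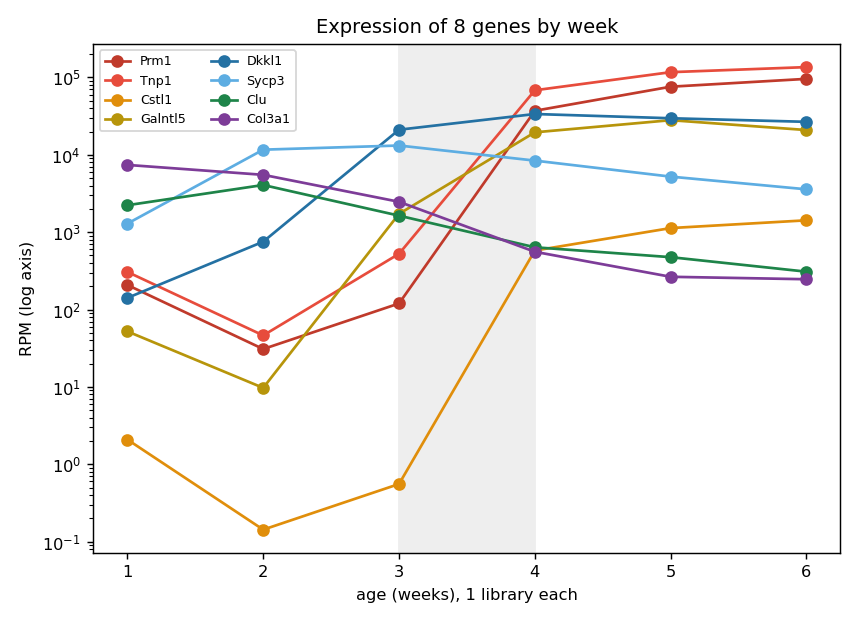
RPM (log axis) of 8 genes in the 6 weekly libraries, 1 library a week, with the step from 3w to 4w shaded. Tnp1, Prm1, Cstl1 and Galntl5 climb steeply across the shaded step, Dkkl1 and Sycp3 change by less than 2-fold, and Clu and Col3a1 fall.

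Acrosome genes were already read at 3w and rose in part. Of 31 tested, 17 rose and 0 fell, beside 10.1% and 35.5% of all genes, with a median log2 ratio of 1.52. The TMM scale gave 23 and 0, beside 17.3% and 8.96% of all. The summed level of the list was 3497 RPM at 3w and 4803 RPM at 4w. Spaca4, a sperm membrane protein of the acrosome, went from 221 to 1966 reads, 7.94-fold (6.91 to 9.17), and Actl7a, an actin-related protein of the acrosome, from 257 to 1727, 6.00-fold (5.26 to 6.87). Izumo1, the sperm protein that binds the egg, went from 30 to 181 reads, 5.39-fold (3.65 to 8.21). Acrv1, a marker of round spermatids, had 49 and 317 reads and rose 5.78-fold (4.26 to 7.97). Cd46, a complement regulator on the acrosomal membrane, had 0 and 94 reads, at least 28.0-fold higher. Several abundant members were close to level. The protease Acr had 435 and 640 reads, a ratio of 1.31 (1.16 to 1.49), and Spata16, which is needed to assemble the acrosome, had 6117 and 5068, a ratio of 0.740 (0.713 to 0.768).

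The list of testis-specific serine kinases held Camk4 and Stk33 besides the Tssk genes. Of its 7 tested genes 6 rose, beside 10.1% of all, with a median log2 ratio of 2.31. On the TMM scale 6 rose, beside 17.3% of all. Tssk6, which is needed for histone removal, had 3 reads at 3w and 240 at 4w, a ratio of 71.4 (24.1 to 349). Tssk2 went from 26 to 405 reads, 13.9-fold (9.35 to 21.6), and Tssk1 from 209 to 1169, 4.99-fold (4.31 to 5.81). The list member that did not rise was Stk33, with 1846 and 1502 reads, while Camk4 went from 23 to 75.

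Genes of the sperm tail rose in part. Of 27 tested, 9 rose and 2 fell in RPM, beside 10.1% and 35.5% of all genes, with a median log2 ratio of 0.27. On the TMM scale 13 rose and 0 fell, beside 17.3% and 8.96% of all. Ropn1, a fibrous sheath protein, went from 68 to 807 reads, 10.6-fold (8.27 to 13.8), and Spata18 from 42 to 346, 7.36-fold (5.33 to 10.4). Cabyr, a calcium-binding fibrous sheath protein, rose 5.86-fold (4.07 to 8.67) and Spag4 4.11-fold (3.83 to 4.41). Among axonemal genes Tekt2 rose from 1001 to 2380 reads and the dynein chain Dnali1 from 1369 to 3239, both just over 2-fold. The radial spoke gene Rsph1 had 17506 and 13479 reads, Spag6 1147 and 1102, and Tekt3 259 and 281, while the dynein heavy chain Dnahc17 fell from 87 to 45 reads on the RPM scale only. Genes of sperm ion channels and signalling also rose in part. Of 14 tested, 5 were higher and 2 lower in RPM, and 5 and 0 on TMM, beside the same shares of all genes. The 2 lower were the kinase subunit Prkaca (21 and 10 reads) and the calcium pump Atp2b4 (36 and 18 reads). Atp1a4, the sodium pump subunit of sperm, rose 11.0-fold (7.99 to 15.4). Of the CatSper calcium channel, the pore subunits Catsper1, Catsper3 and Catsper4 rose 2.81-fold, 3.00-fold and 3.57-fold, while Catsper2 (251 and 256 reads) and the auxiliary Catsperb (130 and 122 reads) and Catsperg2 (334 and 249 reads) did not pass the limit.

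Metabolic isozymes of germ cells were mostly on before 4w. Of 13 tested, 3 rose and 0 fell, beside 10.1% and 35.5% of all genes, with a median log2 ratio of 0.13. On TMM 5 rose, beside 17.3% of all. Pgk2, the germ cell phosphoglycerate kinase, went from 1126 to 3077 reads, 2.44-fold (2.28 to 2.61), and Pdha2, a pyruvate dehydrogenase subunit, from 412 to 1052, 2.28-fold (2.03 to 2.56). Ldhc, the germ cell lactate dehydrogenase, had 4264 and 5991 reads, a ratio of 1.254 (1.21 to 1.30).

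Regulators of transcription and RNA in spermatids rose in 6 of 22 tested genes and fell in 2, beside 10.1% and 35.5% of all. The median log2 ratio was 0.36, and TMM gave 11 and 0, beside 17.3% and 8.96% of all. Fhl5, the co-activator of CREM also called ACT, went from 159 to 2080 reads, 11.7-fold (9.94 to 13.8), whereas Crem itself, the master regulator of the protamine genes, had 840 and 1253 reads, a ratio of 1.33 (1.22 to 1.46). Sox5 rose 3.58-fold (2.81 to 4.61) and Trim66 6.12-fold (2.75 to 16.04). Ybx2, which binds and stores spermatid mRNAs, was abundant at both ages, with 10065 and 12243 reads. Piwil1, the piRNA-binding protein Miwi, fell from 742 to 328 reads, 2.53-fold (2.22 to 2.89), a fall that did not pass on TMM.

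Shaping of the sperm head uses the manchette, a skirt of microtubules. In its list, 8 of 15 genes rose and 1 fell, beside 10.1% and 35.5% of all genes, with a median log2 ratio of 1.16. TMM gave 9 and 0, beside 17.3% and 8.96% of all. Ccin, the calicin of the perinuclear theca, went from 4 to 199 reads, 44.4-fold (17.1 to 165). Spata19 rose 9.31-fold (7.77 to 11.2), Capza3 7.53-fold (5.97 to 9.60) and Spata6, which joins head and tail, 5.70-fold (5.04 to 6.46). The manchette protein Hook1 rose 2.24-fold (1.83 to 2.76). Genes of ubiquitin transfer and histone removal rose in 9 of 18 and fell in 2, against 10 and 0 on TMM, beside the same shares of all genes. The genes of this list had a median log2 ratio of 0.95. Their highest ratios were at ubiquitin ligase genes: Rnf133 went from 9 to 373 reads, 37.0-fold (19.3 to 81.6), Rnf148 from 7 to 211, 26.9-fold (12.8 to 67.8), and Asb17 from 2 to 188. Ube2j1, an abundant ubiquitin-conjugating enzyme, rose from 2193 to 7404 reads, 3.01-fold (2.87 to 3.16). Rnf8, which ubiquitinates histones, fell from 168 to 70 reads on the RPM scale.

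**Figure D3:**
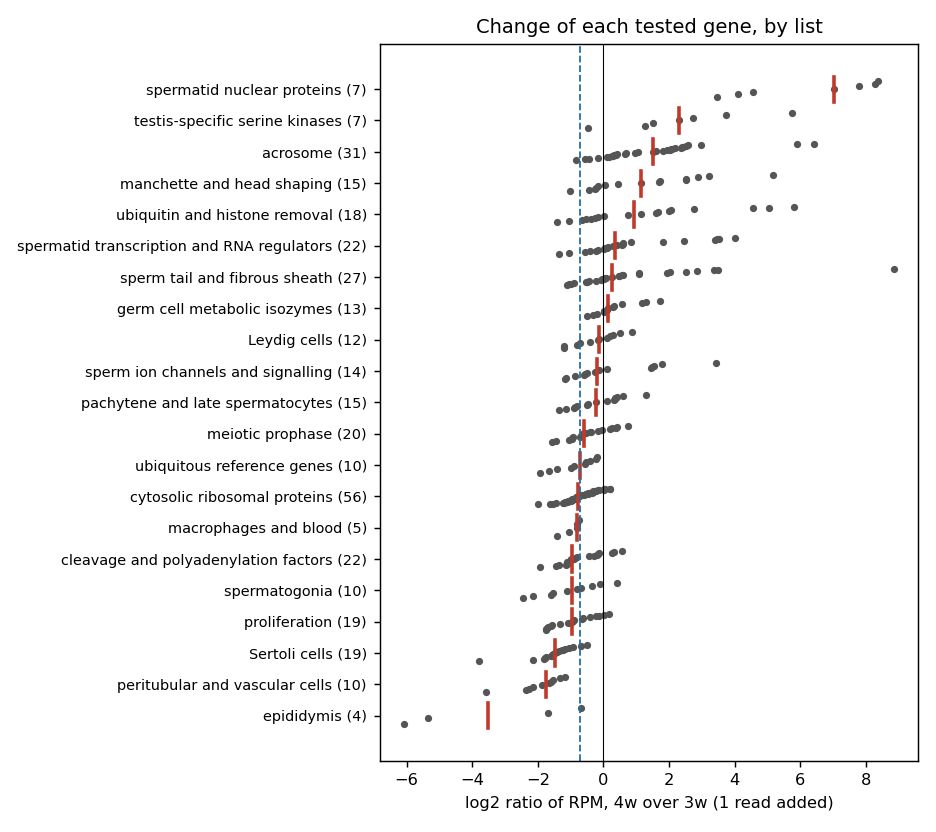
Log2 ratio of RPM (4w over 3w, 1 read added) of each tested gene (dots) in 21 lists, with the number tested in brackets, the median of each list as a red bar and the median of all tested genes as a dashed line at -0.72. Lists of spermatid genes lie at the top, to the right of the dashed line, and Sertoli, peritubular and vascular, and epididymis genes lie to its left.

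Next come genes of earlier germ cells. Among 15 genes of pachytene and late spermatocytes, 1 rose (Pgk2) and 2 fell in RPM, beside 10.1% and 35.5% of all genes, with a median log2 ratio of -0.24. On TMM 6 of the 15 rose and 0 fell, beside 17.3% and 8.96% of all. Ccna1, the meiotic cyclin, had 118 and 170 reads, and Hspa2, a chaperone of spermatocytes, 1108 and 704. Of 20 genes of meiotic prophase, 0 rose and 3 fell, with a median of -0.60 in RPM, and 3 rose and 0 fell on TMM. Sycp3, of the axial elements of the synaptonemal complex, had 47406 and 33882 reads, a ratio of 0.638 (0.629 to 0.647), and Sycp1, of its transverse filaments, had 200 and 295. The genes that fell were Tex11, from 75 to 28 reads, Tdrd9, from 598 to 245, and Tex15, from 254 to 136. In spermatogonia, 0 of 10 genes rose and 5 fell, beside 10.1% and 35.5% of all genes, with a median of -0.96, and TMM gave 1 rise and 2 falls. Foxo1, a transcription factor of undifferentiated spermatogonia, fell from 107 to 21 reads, 5.71-fold (3.55 to 9.60), and Dmrt1, which holds back meiosis, from 160 to 40, 4.48-fold (3.15 to 6.51). Uchl1, a spermatogonial ubiquitin hydrolase, went from 2350 to 1232 reads, which is 2.14-fold (1.99 to 2.29) in RPM and short of 2-fold on TMM. The other way, 4 of the 10 lay above the median gene. They were Nanos3 (45 and 67 reads), Dmrtb1 (476 and 499), Id4 (284 and 250) and the defining marker Kit (12 and 8). The defining marker Zbtb16 had 9 and 2 reads and Gfra1 0 and 4, too few to be tested.

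Genes of somatic cells were mostly lower. In Sertoli cells, the nurse cells of the tubule, 0 of 19 genes rose and 16 fell in RPM, beside 10.1% and 35.5% of all genes. The median log2 ratio was -1.49, and on TMM 0 rose and 5 fell, beside 17.3% and 8.96% of all. The summed level of the list was 6010 RPM at 3w and 2520 RPM at 4w. Inhbb, an activin and inhibin subunit, fell from 393 to 98 reads, 4.49-fold (3.59 to 5.66), and Cldn11, the tight junction protein of the blood-testis barrier, from 2612 to 839, 3.49-fold (3.22 to 3.77). Clu, the secreted chaperone clusterin, fell from 5879 to 2569 reads, 2.56-fold (2.45 to 2.69). Of the defining markers, Sox9 had 46 and 21 reads and Fshr 19 and 7, while Amh was too low to be tested, with 10 and 6. Kitl, the ligand of Kit, had 36 reads at 3w and 2 at 4w, a 20.2-fold fall with an interval from 5.19 to 173. Peritubular and vascular genes fell in 10 of 10, with a median of -1.76, and in 5 of 10 on TMM. Col3a1 went from 8879 to 2247 reads, 4.43-fold (4.22 to 4.64), Col1a1 from 1543 to 359, 4.81-fold (4.29 to 5.42), and Acta2, the smooth muscle actin of peritubular cells, from 2028 to 912, 2.49-fold (2.30 to 2.70). Pdgfrb fell from 224 to 20 reads, 12.5-fold (7.93 to 20.9).

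Leydig cells make testosterone. Of their genes, 2 of 12 fell and 0 rose in RPM, beside 35.5% and 10.1% of all genes. The median was -0.14, which is 0.58 above the median gene. On TMM 2 rose and 0 fell, beside 17.3% and 8.96% of all. Cyp17a1, an enzyme of androgen synthesis, had 547 and 1123 reads, a ratio just short of the limit at a log2 of 0.87, and rose on TMM. Star, which feeds cholesterol to the mitochondrion, had 365 and 497 reads, and Cyp11a1 314 and 405. The 2 that fell in RPM were Nr5a1, from 69 to 33 reads, and Fdxr, from 99 to 48. Macrophage genes fell in 2 of 5 tested, beside 35.5% of all genes, Csf1r (63 and 34 reads) and Emr1 (61 and 25 reads), and in 0 of 5 on TMM.

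Genes of DNA replication and division fell in 9 of 19 and rose in 0, beside 35.5% and 10.1% of all genes, with a median of -0.96, and 3 fell on TMM. The falls were mainly in the replicative helicase, with Mcm2 going from 265 to 87 reads, 3.41-fold (2.67 to 4.40), and Mcm3 from 152 to 50, 3.40-fold (2.46 to 4.79), while the division cyclin Ccnb2 had 588 and 735 reads. Ribosomal protein genes had a median of -0.77, close to that of all genes. Of 56, 13 were lower and 0 higher in RPM, beside 35.5% and 10.1% of all, and 1 was lower on TMM, beside 8.96%. Of 10 ubiquitous reference genes 3 were lower in RPM, beside 35.5% of all genes, with a median of -0.72. The cytoskeletal actin Actb fell from 1727 to 507 reads, 3.82-fold (3.45 to 4.22), and was the 1 reference gene lower on TMM. Gapdh was listed at 0 in both libraries.

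Not all falls were of testis genes. Among the 12 genes with the clearest falls were Defb39 and Crisp1 of the epididymis (1379 to 13 and 421 to 6 reads), Acta1 and Tnnt3 of skeletal muscle (5103 to 183 and 2286 to 47), Fga and Plg of the liver (475 to 8 and 360 to 12) and Krt1 of skin (290 to 6). Others were AY761185 (141 to 0), Krt19 (66 to 0), Ibsp (65 to 0), Creb5 (431 to 16) and Sln (266 to 9). Most of these genes were highest at 3w, though Creb5 had 714 reads at 1w and Crisp1 and Krt1 had 325 and 263 at 2w. The defining markers of the same tissues were low in the 3w library. At 3w the muscle gene Ckm had 21 reads and Myh4 0, although Mylpf had 104. The liver genes Alb and Apoa1 had 7 and 2 reads, the epididymis genes Lcn5 and Lcn8 had 1 each, and of skin Krt10 had 26 and Krt14 75. Of the epididymis list 3 of 4 tested genes fell in RPM and 2 on TMM, beside 35.5% and 8.96% of all genes. The summed level of the list was 192 RPM at 3w and 36.5 RPM at 4w. Where these reads came from was not tested. Leaving out the genes listed for other tissues, a list made after their values were seen, left 3866 lower genes.

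The rank of the most abundant genes also turned over. At 3w the order began with Dkkl1, an acrosomal protein related to Dickkopf, then Sycp3, Rbm39 and Atpif1, and at 4w with Tnp1, Prm1, Dkkl1 and Galntl5. Galntl5, an acrosomal glycosyltransferase-like protein, went from 6201 to 78618 reads, 11.3-fold (11.0 to 11.6). Dkkl1 had 75866 and 135614 reads, a ratio of 1.60 (1.58 to 1.61), and Syngr4 had 16893 and 31868. The mitochondrial ATPase inhibitor Atpif1 and the carrier Slc25a39 had ratios of 1.01 and 1.00.

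Genes on the X chromosome, which is silenced in meiosis and only partly active afterwards, included more genes lower at 4w in RPM, 187 of 341 (54.8%) against 34.9% of 10575 autosomal genes. The X median was -1.07 and the autosomal median -0.71, with single autosomes between -0.80 and -0.61. On TMM 60 X-linked genes were lower (17.6%) and 65 higher (19.1%), against 8.68% and 17.3% of autosomal genes. The share of X-linked genes that were higher in RPM was 14.1%, or 48 genes, against 9.94% of autosomal genes. By the lower bound of the interval the highest were the phosphatase inhibitor relative Ppp1r2-ps7, which went from 10 to 986 reads, 88.0-fold (47.7 to 184), 4930557A04Rik, from 3 to 361, 1700054O13Rik, from 22 to 986, Gm5382, from 3 to 170, and Sh3kbp1, an adaptor of endocytosis, from 14 to 364.

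Because 3w and 4w had 1 library each, the called genes were looked up in the 2w and 5w libraries, which played no part in the calls. Of the 1099 higher genes 1075 had enough reads there, and 985 of these (91.6%) were higher at 5w than at 2w, against 20.4% of all genes. Of 3781 lower genes, 3584 (94.8%) were lower at 5w than at 2w, against 57.6% of all genes. These counts are in RPM, on which the median log2 ratio of all genes, 5w over 2w, was -1.45.

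Site usage was compared in genes with 2 or more last-exon pAs. The pair of sites with most reads over all 6 libraries made up the Prx-pA and the Dis-pA, and relative expression (RE) was the log2 ratio of reads at the Dis-pA to those at the Prx-pA, both increased by 1 read. The difference in RE, 4w minus 3w, is called RED, so that a negative RED is a shift to the shorter 3'UTR. It compares 2 sites of 1 gene within each library and does not change with the scaling. Of 5711 genes with at least 20 reads at the pair in each library, 2144 had a RED of -1 or lower (37.5% of all) and 396 a RED of 1 or higher (6.93% of all). The median RED was -0.61 and 71.7% of the values were below 0. The median RE went from 1.39 to 0.35, and the Dis-pA was the major site in 60.9% of genes at 3w and in 53.0% at 4w. Counting error weighs unequally on these calls: the interval of RED lay wholly below 0 in 1338 of the 2144 shortened genes, but wholly above 0 in only 86 of the 396 lengthened ones. The Dis-pA share of the pair moved by at least 10 percentage points in 1231 shortened and 108 lengthened genes.

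The shift can be seen at single sites. The sequences here are the 30 bases of the mm9 genome that end at the pA, 5' to 3' on the strand of the gene, for 6 of the 10 shortened genes named by the rule and for Cpne1, and capitals mark the polyadenylation signal AATAAA. The 6 were chosen after their windows were seen, to show a pair with the signal at the Dis-pA alone. Over all 10 named genes, 0 Prx-pA windows and 7 Dis-pA windows held AATAAA. The Dis-pA window of Pppde1 held the variant ATTAAA, and those of Prkar2a and Phactr1 held neither. A signal cut by the edge of the 30 bases is missed, and the shares over all pAs given below use 40 nt. In Cpne1, whose 3'UTR lengthened, the Prx-pA window held AATAAA.
Tfam Prx-pA, chr10:70691205-70691234, minus strand: ctagaacggataaaggtggttaacctttga
Tfam Dis-pA, chr10:70690684-70690713, minus strand: tgcatagAATAAAaactctaattttccaaa
Eif4h Prx-pA, chr5:135097198-135097227, minus strand: gtggtttctagtacattcttggctttgcta
Eif4h Dis-pA, chr5:135095746-135095775, minus strand: cttttaAATAAAagagaaccttacataaca
Eif1b Prx-pA, chr9:120404144-120404173, plus strand: atgattctttacagtaaacgacagactttg
Eif1b Dis-pA, chr9:120404402-120404431, plus strand: cttaacAATAAAaagaaagtgtgcatcctt
Gabarapl1 Prx-pA, chr6:129491285-129491314, plus strand: gacgcaaggtgaagacatcgggaaacatca
Gabarapl1 Dis-pA, chr6:129492320-129492349, plus strand: gaAATAAAataattgcttaccttaaaagtc
Rcc1 Prx-pA, chr4:131888630-131888659, minus strand: acagatagcatctcctgtcttttcccatca
Rcc1 Dis-pA, chr4:131887838-131887867, minus strand: aacactttAATAAActtagagttttgtaaa
Abl1 Prx-pA, chr2:31657848-31657877, plus strand: acctttgatgcttacaaactgtccccgaga
Abl1 Dis-pA, chr2:31659026-31659055, plus strand: gtattttttaAATAAAtgtttacagaacta
Cpne1 Prx-pA, chr2:155897581-155897610, minus strand: atgtatcAATAAAattaatatatccacctc
Cpne1 Dis-pA, chr2:155890640-155890669, minus strand: cctcatgttgggtgacctccaaccataaaa

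Tfam, the mitochondrial transcription factor, had 4 Prx-pA and 128 Dis-pA reads at 3w and 1160 and 88 at 4w. Its 2 sites lay 102 and 623 nt after the stop codon, and its read-weighted mean 3'UTR size went from 791 to 157 nt. Eif4h, a helper of the translation initiation helicase, had 24 and 379 reads at 3w and 924 and 141 at 4w, with sites at 181 and 1633 nt and a mean size of 1546 and then 373 nt. In Eif1b, a start codon selection factor, the Prx-pA at 98 nt rose from 12 to 847 reads while the Dis-pA at 356 nt had 559 and 417. Gabarapl1, of autophagosomes, had 11 and 116 reads at 3w and 360 and 39 at 4w, with sites at 129 and 1164 nt. In Rcc1, the nucleotide exchange factor of Ran, the Prx-pA rose from 1 to 357 reads and the Dis-pA had 107 and 114. These genes gained Prx-pA reads while their Dis-pA reads fell or were level, so that total reads of Tfam, Rcc1 and Gabarapl1 rose, with log2 ratios of 3.08, 2.22 and 1.74.

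Among other shortened genes, the totals of Abl1 and Cdkn1c did not rise. Abl1, a tyrosine kinase, had 4 and 246 reads at 3w and 109 and 51 at 4w, a RED of -6.71 (interval -8.07 to -5.34), with a log2 ratio of its expression of -0.79. Cdkn1c, an inhibitor of the cell cycle, had 0 and 115 reads and then 62 and 19, with a log2 ratio of -0.65. The remaining genes named by the rule were Prkar2a (1 and 141 reads, then 311 and 44), Pppde1 (0 and 21, then 88 and 1) and Phactr1 (6 and 24, then 161 and 1), whose sites lay only 61 nt apart. Expression of Prkar2a, Pppde1 and Phactr1 had log2 ratios of 1.78, 0.82 and 2.26. In Cep57, a centrosomal protein, RED was -2.64 (-3.31 to -1.97), with 23 and 172 reads at 3w and 223 and 258 at 4w. The log2 ratio of its expression was 0.99.

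**Figure D4:**
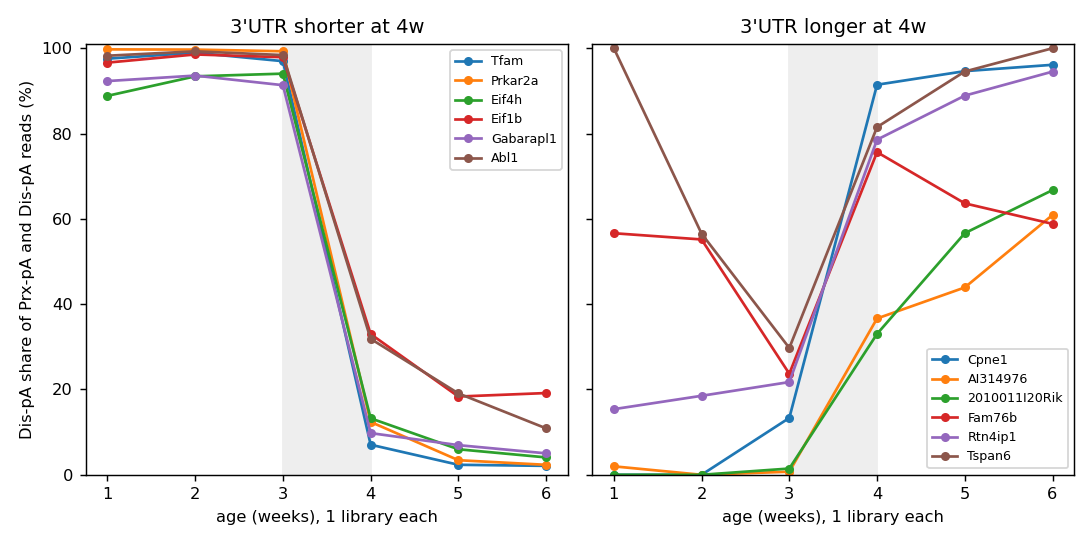
Dis-pA share of the Prx-pA and Dis-pA reads, in percent, in the 6 weekly libraries for 6 genes with shortened (left) and 6 with lengthened 3'UTRs (right), with the step from 3w to 4w shaded. The shortened genes hold at least 88.8% to 3w, drop to at most 33.0% at 4w and end lower still, while the lengthened genes start from unlike levels and share only the rise at 4w.

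Over the weeks, the median Dis-pA share of the 2144 shortened genes began at 94.03% (1w), 94.2% (2w) and 88.1% (3w), then reached 55.8% in the 4w library, and it was 47.1% and 42.0% in those of 5w and 6w. The values from 1w, 2w, 5w and 6w took no part in the calls, apart from the choice of the pair. Between 2w and 5w, 1453 of 1761 shortened genes with enough reads were again shorter (82.5%), against 53.5% of all genes. Lengthened genes carried over less, with 100 of 290 longer at 5w than at 2w (34.5%), against 9.001% of all, and 64 shorter.

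Longer 3'UTRs were few but some were clear. Cpne1, a calcium-dependent membrane-binding protein, had 26 Prx-pA and 4 Dis-pA reads at 3w and 13 and 139 at 4w, with a Dis-pA 6941 nt further from the stop codon, and its expression rose with a log2 ratio of 2.22. AI314976 had 137 and 1 reads, then 102 and 59, and 2010011I20Rik 202 and 3, then 148 and 73, both with a level total. Fam76b had 219 and 68 reads, then 19 and 59, so that its Dis-pA share of 75.6% came with a fall of the Prx-pA. Against a Fam76b share of 55.2% in the 2w library, the 23.7% of 3w was low. Ghitm, a mitochondrial inner membrane protein, lost Prx-pA reads from 13982 to 1229 while its Dis-pA had 83 and 42. The 1w and 2w libraries held only 449 and 414 Prx-pA reads of Ghitm. Its Dis-pA share of 3.30% in the 4w library thus exceeded the 0.59% of 3w but not the 13.6% of 2w. Others were Rtn4ip1, whose share went from 21.7% to 78.6% and Xpo7, a nuclear transport receptor, from 0 to 9 Dis-pA reads beside 543 and 166 at the Prx-pA. In Tspan6 the share went from 29.7% to 81.5%, but its sites lay 38 nt apart and its mean 3'UTR size over all last-exon pAs went from 1001 to 956 nt. Tpm2 went from 56.6% to 90.9%, but its Dis-pA was assigned the smaller size, 68 against 239 nt. The mean size of Tpm2 went from 142 to 83.5 nt. 4930503L19Rik had 270 and 1 reads, then 570 and 53, but its sites lay 14890 nt apart. Only its Dis-pA had a 3'UTR size, 43 nt, so a longer 3'UTR is not shown.

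How the isoforms moved differed among the 2144 shortened genes. In 365 the Prx-pA rose at least 2-fold in RPM and the Dis-pA fell at least 2-fold, in 559 the Prx-pA rose and the Dis-pA stayed within 2-fold, and in 858 the Dis-pA fell and the Prx-pA stayed within. Both sites rose in 54 and both fell in 52, and in 256 neither passed 2-fold. The major site switched from Dis-pA to Prx-pA in 401 shortened genes and the other way in 15 lengthened ones. The 3'UTR size, weighted by reads over all last-exon pAs, had a median of 533 nt at 3w and 479 nt at 4w over 5359 genes with at least 50 reads in each library.

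Shortening was called in 23.1% of genes with less than 200 nt between the sites, in 35.1% at 200 to 500 nt, in 43.8% at 500 to 1000 nt, in 52.03% at 1000 to 2000 nt and in 45.4% at 2000 nt or more. The signal near the sites differed as well. Within the 40 nt before the pA, AATAAA stood at 28.5% of the Prx-pAs and 65.8% of the Dis-pAs of shortened genes. In genes with RED between -1 and 1 the values were 41.4% and 57.6%, and 38.9% of all 45622 last-exon pAs had it. When the variant ATTAAA was counted too, on the strand of the gene, 41.7% of the Prx-pAs and 82.9% of the Dis-pAs of shortened genes had a signal. For lengthened genes AATAAA stood at 47.7% of Prx-pAs and 48.7% of Dis-pAs. A motif match is a description of the letters and does not show that a site was used through it.

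Expression was lower in 25.5% of genes with shortened 3'UTRs and in 34.0% of genes with RED between -1 and 1. In shortened genes the median log2 ratio in RPM was -0.42, which is 0.36 above the -0.78 of the unshifted genes, and the difference does not depend on the scaling of the libraries. The relation was graded. Among 232 genes with RED of -4 or lower, 27.6% rose and the median was 0.20. At -4 to -2 the share was 15.3% with a median of -0.29, at -2 to -1 it was 5.71% with -0.57, and between -1 and 1 it was 3.00% with -0.78. On the side of lengthening, 303 genes with RED of 1 to 2 had 3.63% higher and a median of -0.90, and 93 genes with RED of 2 or higher had 19.4% and -0.66. In the group with RED of -4 or lower the Prx-pA reads had a median log2 ratio of 3.77 and the Dis-pA reads -1.16, and the Dis-pA median was -1.12 and -1.16 in the next groups, so that the groups differed in what the Prx-pA gained more than in what the Dis-pA lost. Genes with a large RED of either sign thus rose more often, but this is partly built in. Where 1 site had almost no reads at either age, the added read makes RED follow the change at the other site. The Dis-pA share moved by less than 1 percentage point in 185 of the 2144 shortened and 79 of the 396 lengthened genes. Both measures use the same reads, so the rank correlation of RED with the expression ratio, -0.22 over 5711 genes, is given as a description only. Genes with 1 last-exon pA, which cannot shift, rose in 12.4% of 2955, with a median of -0.68. With at least 20 reads in each library, as the RED groups needed, it was 8.20% of 2085 with a median of -0.64, beside 11.5% of shortened genes.

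**Figure D5:**
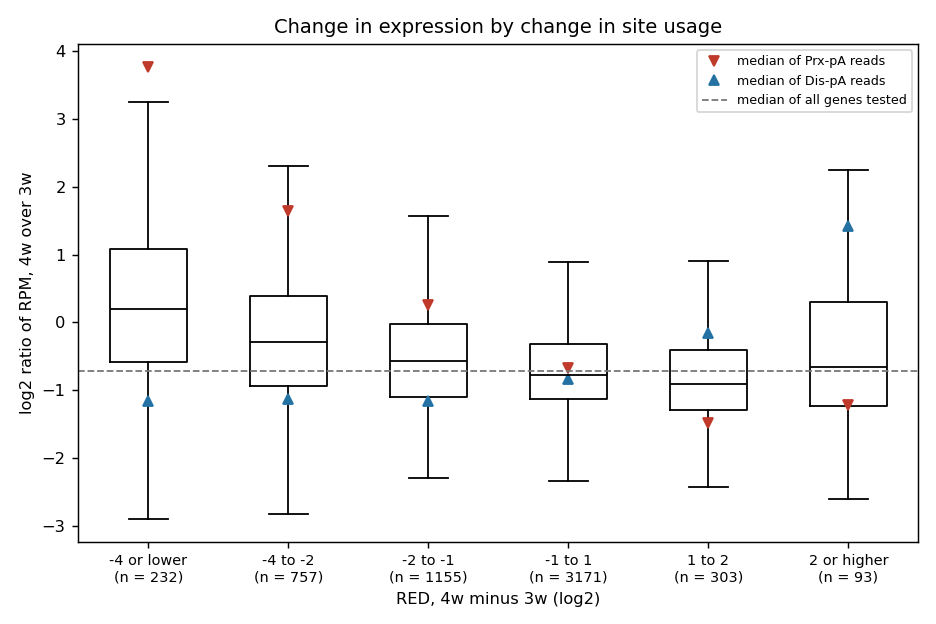
Log2 ratio of RPM (4w over 3w) of genes grouped by RED, with boxes for the quartiles, the bar for the median and whiskers to 1.5 times the box, and triangles for the median ratios of the Prx-pA and Dis-pA reads. The median rises to the left, from -0.78 at RED of -1 to 1 up to 0.20 at RED of -4 or lower, along with the Prx-pA, and the Dis-pA median is -0.83 at RED of -1 to 1 and between -1.16 and -1.12 in the 3 groups to its left.

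The 3'UTR size was also set against expression. Over the 312 higher genes with at least 50 reads in each library the median 3'UTR size was 281 nt at 3w and 199.96 nt at 4w, over 3569 genes within 2-fold it was 454 and 409 nt, and over 1478 lower genes 858 and 828 nt. Genes with 1 last-exon pA have a fixed size, and the order was the same among them: 125 nt in 335 higher genes, 241 nt in 1523 within 2-fold and 467 nt in 1006 lower genes. Of these genes, 24.5% of those under 150 nt rose and 19.8% fell, against 3.47% and 67.6% of those of 1200 nt or more. The 58 genes that went from at most 3 reads to at least 50 had a median size of 122 nt at 4w.

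Site usage was also counted in the gene lists. In the ubiquitin and histone removal list 7 of 11 genes with a pair shortened, beside 37.5% of all, 0 lengthened, and in all 7 the interval lay below 0. Ube2b, the ubiquitin-conjugating enzyme needed for sperm formation, went from a Dis-pA share of 88.8% to 28.5%, Usp2 from 34.4% to 7.71% and the chromatin remodeller Chd5 from 14.7% to 2.91%. Among transcription and RNA regulators 8 of 13 shortened, 6 with intervals below 0, and the Dis-pA share of Paip2, a repressor of poly(A)-binding protein, went from 60.7% to 18.9%, and that of Sox30 from 86.3% to 50.7%. In the acrosome list 7 of 13 shortened, 5 with intervals below 0, with Dpy19l2 at 47.2% and 27.9%. Actl9 and Izumo3, counted among the 7, had 0 Dis-pA reads at both ages, and their RED came from the added read. In the other 2 lists, Ube2j1 (99.9% and 99.4%) and Piwil1 (99.7% and 99.1%) were also counted though their shares moved little. Tdrd7, counted too, had 0 and 2 Prx-pA reads. Hook1 of the manchette list went from 87.2% to 19.7%. Cleavage and polyadenylation factors had 6 of 14 shortened, 5 of them with intervals below 0, beside 37.5% of all genes with a pair. The 6 include Cstf1, whose Dis-pA share was 1.02% and 0.387%, and Papolg, with 100% and 99.2%. Of 22 tested for expression, 9 were lower and 0 higher in RPM, beside 35.5% and 10.1% of all, and 1 was lower and 2 higher on TMM. Cstf2, an RNA-binding subunit of the cleavage stimulation factor, went from 37.7% to 9.76% with 122 and 164 reads, and its autosomal relative Cstf2t had 292 and 165 reads.

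Shortening was called in 0 of 8 Sertoli genes and in 0 of 25 ribosomal protein genes, against 37.5% of all. In these lists 2 and 3 lengthened, of which 1 and 0 had an interval above 0. Their pairs started from unlike levels at 3w. The Dis-pA share was 0% in Rpl12, Rpl38 and Inha, which left nothing to lose, but 99.2% in Cldn11 and 99.1% in Rpl22. Vim, the intermediate filament of Sertoli cells, had a Dis-pA share of 89.3% and then 96.1%. Of the collagens, Col1a1 had 89.4% and 38.9% and Col1a2 the opposite, 52.3% and 87.9%. Both Tnp1 and Hils1 passed a RED of 1, but their Dis-pA shares were above 99.9% at both ages, and the value came from the added read.

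Upstream pAs, in introns or in exons before the last, were set against last-exon reads (CDS-APA), since transcripts ending there lack part of the coding region. Of 2309 genes with enough reads, 760 had relatively more upstream pA reads at 4w by at least 2-fold (32.9% of all) and 315 relatively fewer (13.6% of all), with a median log2 change of 0.41. Jmjd6, a nuclear hydroxylase, had 5 upstream and 146 last-exon reads at 3w and 162 and 117 at 4w. The GTP-binding protein gene Gtpbp2 had 24 and 54, then 882 and 87, and Gemin4, of the SMN complex, had 35 and 198, then 725 and 210. Synpo had the same direction on fewer reads, with 4 and 66, then 32 and 11. In Spink8 the upstream reads were 6 and 9, while its last-exon reads went from 376 to 16. The last-exon reads of Spink8 were 0 at 1w and 375 at 2w. In the other direction, Rbm4b, a splicing regulator, went from 33 and 57 to 13 and 284, and Fyb from 12 and 68 to 2 and 410. In Arhgap28 (134 upstream reads at 3w), Atp5k (583) and Tmco1 (70) the upstream reads were high in the 3w library alone, with at most 25 reads in any other week. The median log2 ratio of last-exon reads was -0.92 in genes with more upstream use, 0.11 in those with less and -0.52 in the rest, and last-exon reads are part of both measures.

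Upstream antisense RNA (uaRNA), made from promoters in the direction away from the gene, took 2.08% of the reads at 3w and 2.85% at 4w. Among 1079 genes with at least 20 such reads, 268 were higher in RPM (24.8% of all) and 54 lower (5.0% of all), with a median log2 ratio of 0.20, while the median of their own sense reads was -0.61 in the 919 genes that could be compared. The uaRNA of Ywhaq, a 14-3-3 protein, went from 2 to 178 reads while the gene had 108 and 80. That of A430005L14Rik went from 4 to 670 reads with 3 and 4 reads of the gene, and that of Phospho1, a phosphatase, from 6 to 602 with 19 and 78. Gm8096 had 1 and 403 uaRNA reads and D930020B18Rik 0 and 95. At Srrm2 and Zfp780b the reads went from 116 to 0 and from 109 to 3, both high at 3w alone.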

How the data were processed

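Testis of FVB mice at 1w to 6w was profiled by 3'READS from 25 µg of RNA, with 15 PCR cycles and 1 library a week. The authors mapped reads to mm9 with Bowtie 2 (version not given in the sources used here), kept PASS reads, those with at least 2 unaligned Ts at the end, clustered pAs within 24 nt, and deposited read counts per pA with no normalization. These are whole numbers, 73540 rows in all, of which 1053 rows with a pA listed under more than 1 gene were dropped (0.492% of reads at 3w and 0.429% at 4w). RPM used the total left after that. Reads from genes with near-identical copies or overlapping genes may be split or lost in mapping.

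Ratios carry exact conditional binomial 95% intervals and RED intervals come from the delta method. No age test was made, since 1 library a week leaves no residual degrees of freedom, and the study's sampling method SAAP was not used because it resamples reads. TMM factors (edgeR 4.0.16) and DESeq2 1.42.0 size factors served only as other scalings; Python 3.11.15, pandas 2.3.3, scipy 1.17.1 and R 4.3.3 were used, and the calculations were tested on simulated data. CDS-APA needed at least 20 reads in each library and 5 upstream reads over both together. The 3'UTR size ran from the stop codon of the GENCODE vM1 annotation of mm9; the symbol matched for 15669 genes and a synonym for 38, while 490 stayed unmatched, and 43375 of 45622 last-exon pAs had a size. The genes and lists were chosen with earlier results of these data known. Named were the 12 genes with the highest lower and the 12 with the lowest upper bound of the ratio interval. Others came from the 10 most abundant at each age and the 10 most shifted each way for 3'UTRs. For CDS-APA and uaRNA they came from 5 each way. Not every gene of the most abundant and uaRNA sets is printed. Eif4h and Cep57 were added, with list members as examples. X-linked genes, genes off at 3w and tissue markers beside the falls were chosen after their values were seen. Alternatives changed scaling, read minimum, pA types, fold limit, added read and the earlier library.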

Additional observations from a re-analysis of the deposited data

Results flagged for a closer look

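Reads at pAs assigned to more than 1 gene were used in no comparison, and 110 of these pAs had at least 20 reads over the 3w and 4w libraries. They are given here because they carry signal outside the gene totals. In RPM 15 of them were at least 2-fold higher at 4w and 25 at least 2-fold lower. The last-exon pA shared by Npcd and Nptxr went from 2 to 165 reads, and that shared by Cypt1, Cypt7 and Cypt8, a family of cysteine-rich genes of spermatids, from 32 to 482, 13.4-fold (9.40 to 19.9). Which of the genes gave the reads cannot be told apart.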

How the results depend on the processing

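Only counting error and depth could be assessed, since each age had 1 library. No paired analysis was possible because no week has a second library. Scaling decided most of the expression counts. TMM gave 1891 higher and 978 lower genes with a median log2 ratio of -0.028, and DESeq2 size factors 1986, 881 and 0.026, which turned the sign of the median. The median was -0.74 with the PASS read totals of the study, -0.53 without the 10 most abundant genes and -0.67 with all sense pAs. A minimum of 100 reads gave 694 higher, 2119 lower and a median of -0.66, no minimum gave 1762 and 5876, and a limit of 4-fold 656 and 465. Intervals wholly past 2-fold left 1359 lower genes. With 0.1 read added the lengthened genes were 597 and the median RED -0.69. At least 50 pair reads left 1402 shortened and 203 lengthened genes, RED past 2 left 989 and 93, and counting every gene with an interval above 0, whatever its RED, gave 113 lengthened. At least 50 reads left 498 and 188 genes with more and less CDS-APA and 114 and 16 genes with higher and lower uaRNA, and TMM gave 490 and 11 for uaRNA. With 2w in place of 3w, added after seeing the data, 2315 genes were higher and 6127 lower, the medians were -1.13 for expression and -0.95 for RED, and the expression difference between shortened and unshifted genes was 0.57. The fewer calls under stricter limits follow from their construction, and for the other changes the cause was not tested. Counting error weighed more on the lengthened than on the shortened genes, with intervals past 0 in 86 of 396 and 1338 of 2144.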

Other observations

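Several genes known as abundant in late spermatids had few last-exon reads at every age. Akap4, the main protein of the fibrous sheath, had 3, 10 and 8 reads in the libraries of 3w, 4w and 6w. Smcp, of the mitochondrial capsule, had 1, 24 and 85, and Spem1, which helps to shed the cytoplasm, had 0, 5 and 32. Hist1h1t, the testis linker histone, had 3 reads at 3w and 13 at 4w. These levels were not explained by any value computed here.

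The steps between neighbouring weeks can be set side by side, although they share libraries. Shortened 3'UTRs made up 12.4% of genes tested from 1w to 2w, 28.0% from 2w to 3w, 37.5% from 3w to 4w, 18.8% from 4w to 5w and 12.8% from 5w to 6w. Genes higher in RPM made up 6.90%, 17.4%, 10.1%, 0.961% and 1.04% at the same steps.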
